A study of Mus musculus with 6 samples.

Results

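Ribosome biogenesis factors are the proteins that transcribe, modify, cut and assemble ribosomal RNA into ribosomal subunits, most of them in the nucleolus. The set described here holds 40 genes, each with 1 row among the 55356 genes of the deposited table. They were picked by symbol for their known roles, with earlier results of these data known. All 40 passed the minimum level for testing, as did 16645 genes in all. The 6 libraries come from myotubes, the fused muscle cells formed by C2C12, a mouse myoblast cell line. One group (n = 3) received 20 µM sorafenib, an inhibitor of several protein kinases, for 24 h. The other group (n = 3) received 0.1% DMSO, the vehicle, for the same 24 h. Replicates are labelled as coming from separate experiments. Both groups carry no other labelled treatment, and a single immortal line stands in for muscle. The question is which transcripts of muscle cells respond to the drug.

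RNA polymerase I, helped by the factors UBTF and RRN3, transcribes ribosomal DNA into a long precursor. Box C/D and H/ACA ribonucleoproteins, each a small nucleolar RNA with its core proteins, guide 2′-O-methylation and pseudouridylation of that precursor. The small subunit processome then cuts and folds the small subunit part, while separate assembly factors such as the PES1, BOP1 and WDR12 complex mature the large subunit. In growing muscle cells this pathway sets the capacity for protein synthesis, and it is usually lower in differentiated myotubes than in dividing myoblasts.

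All values are normalized counts deposited by the authors. Normalized totals were 70211431 to 70598400 per sorafenib library and 77972419 to 78898086 per DMSO library. All 8 myotube markers were present and all 8 were lower with sorafenib; their summed level was 437216 to 522126 in sorafenib and 1553755 to 1689453 in DMSO. Of 5 markers of myoblasts or satellite cells, 3 were higher and 2 lower, with sums of 27419 to 28012 in sorafenib and 14870 to 15550 in DMSO. Myf5 alone carried that rise: without it the sums were 9810 to 10328 in sorafenib and 13907 to 14670 in DMSO. Of 6 proliferation markers, 4 were lower, Mcm2 was higher and Cdk1 did not pass, with sums of 13249 to 13945 in sorafenib and 17211 to 21987 in DMSO. Of 4 fibroblast markers, 3 could be tested and fell, with sums of 14263 to 16925 in sorafenib and 62350 to 69823 in DMSO. Most of that gap was Col1a1: without it the sums were 3987 to 4195 in sorafenib and 4863 to 5384 in DMSO. Of 4 macrophage markers only the lysosomal gene Cd68 could be tested, and it was higher, with sums over the 4 of 361 to 443 in sorafenib and 46.8 to 56.6 in DMSO. The leukocyte gene Adgre1 was at 0 in all 6 libraries and Ptprc stayed at or below 0.976. The fibroblast gene Lum was at 0 in each sorafenib library and at most 4.48 in DMSO. The part of these marker changes in the other results was not tested. In bulk samples fewer cells of a type and less RNA per cell cannot be told apart.

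Most ribosome biogenesis factors were higher in sorafenib. Of the 40 genes, 33 rose, 4 fell and 3 did not pass the test (limma, Benjamini-Hochberg adjustment over all genes tested, threshold 0.05). Over all genes tested, 38.8% were higher and 37.8% lower, and 76.6% were called in either direction. The median log2 change of the 40 genes was 0.70, against 0.02 for all genes tested. A rise of at least 2-fold was seen for 7 of the 40 genes, beside 12.5% of all genes tested. A fall of that size was seen for 0 of the 40. Over all genes tested, the log2 change had a 5th percentile of −2.35 and a 25th percentile of −0.62. That count of 7 was 14 with equal totals, where the share of all genes was 15.7%, and 11 with quantile normalization, where it was 13.7%. The 3 sorafenib libraries lay wholly on 1 side of the 3 DMSO libraries for 38 of the 40 genes, beside 79.5% of all genes tested; the exceptions were Utp3 and Rrp12. Of the 40 genes, 34 were higher without overlap, beside 40.1% of all genes tested. Together the 40 genes held 0.566%, 0.557% and 0.568% of all normalized counts in sorafenib, against 0.330%, 0.309% and 0.313% in DMSO. In the authors' deposited table, 32 of the 40 were higher and 4 lower at an adjusted p under 0.05, and Nop10 was the call that differed. With libraries scaled to equal totals, the all-gene median moved up by 0.16 on the log2 scale, and calls on small changes that this alters are given with each gene.

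**Figure D1:**
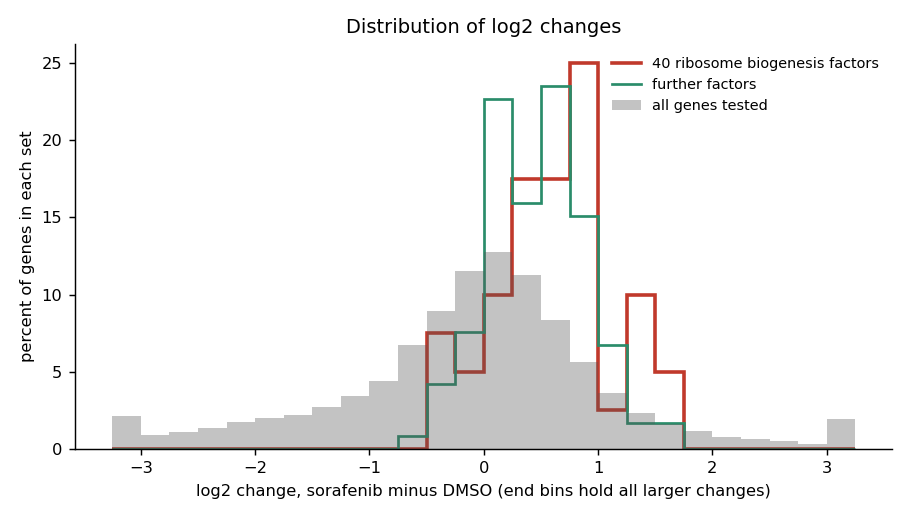
The x axis is the log2 change, sorafenib minus DMSO, in bins; the y axis is the percent of each set of genes, with the 40 ribosome biogenesis factors in red, 119 further factors in green and all 16645 genes tested in grey. The red outline lies mostly right of 0, with a median of 0.70, and the grey bars centre near 0.02.

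**Figure D2:**
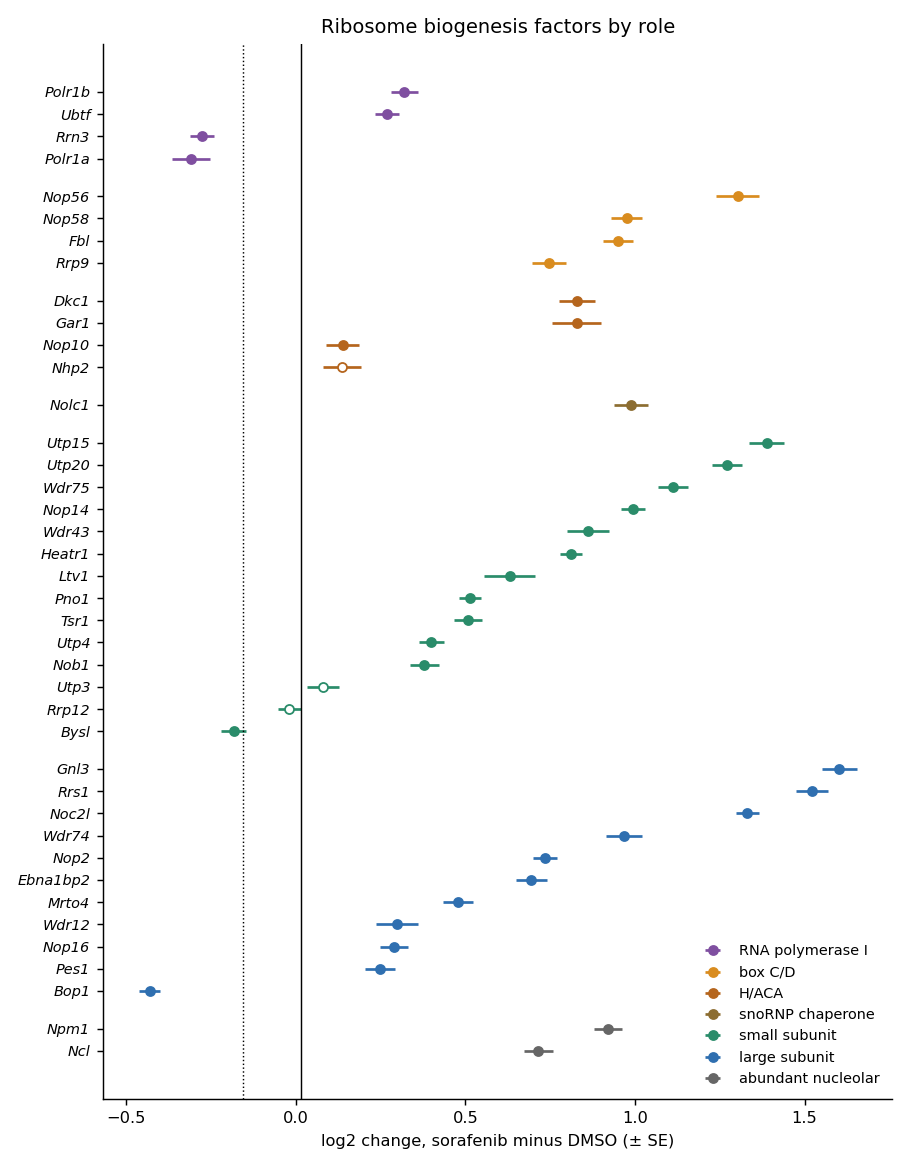
Each point is the log2 change of 1 gene, sorafenib minus DMSO, with its SE (n = 3 each), grouped by role; open points did not pass the test. The solid line marks the median of all genes tested (0.02) and the dotted line marks where no change would lie with equal totals (−0.16); the 4 genes that fell are Bop1, Polr1a, Rrn3 and Bysl.

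The RNA polymerase I genes went both ways. Polr1b, the second-largest subunit, had 3363, 3281 and 3259 normalized counts in sorafenib, against 2672, 2574 and 2689 in DMSO. It was higher in every sorafenib library, by 0.32 ± 0.04 on the log2 scale (SE, limma adjusted p = 6.09e-05). Polr1a, the largest subunit, had 7494, 7753 and 6604 in sorafenib, against 9024, 9062 and 8922 in DMSO. It was lower in every sorafenib library, with a log2 change of −0.31 ± 0.06 (limma adjusted p = 0.00087). Ubtf, the architectural factor that keeps ribosomal genes open, had 9354, 9864 and 9715 in sorafenib, against 8208, 7953 and 7848 in DMSO, a log2 change of 0.27 ± 0.04. Rrn3, also called TIF-IA, which recruits the polymerase to the promoter, had 7270, 7715 and 7547 in sorafenib, against 9196, 8920 and 9161 in DMSO. It fell, with a log2 change of −0.28 ± 0.04. The groups did not overlap for any of the 4, as for 79.5% of all genes tested. With equal totals the falls of Polr1a and Rrn3 shrank to −0.15 and −0.12 and still passed.

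Transcripts of all 4 box C/D proteins among the 40 genes rose, beside 38.8% of all genes tested. Fibrillarin (Fbl), the methyltransferase of the particle, had 6628, 6057 and 6247 normalized counts in sorafenib, against 3349, 3257 and 3185 in DMSO. Its 1.93-fold rise was close to the 1.97-fold rise of Nop58, a scaffold protein of the same particle, which had 14625, 14468 and 15454 in sorafenib and 7984, 7321 and 7362 in DMSO. Nop56, the other scaffold, had 16027, 15888 and 16809 in sorafenib, against 7287, 6425 and 6079 in DMSO. Nop56 rose most of the 4, 2.46-fold (log2 change 1.30 ± 0.06, limma adjusted p = 1.84e-07), and lies at chr2:130274430-130279313 on GRCm38 in GENCODE M21. Rrp9, a protein specific to the U3 particle that cuts the small subunit precursor, rose 1.68-fold. Nolc1, a chaperone of both snoRNP classes, averaged 13558 ± 452 in sorafenib and 6846 ± 458 in DMSO (SD, n = 3 each), a 1.98-fold rise.

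The H/ACA genes split into 2 pairs. Dyskerin (Dkc1), the pseudouridine synthase, had 4707, 4863 and 4644 normalized counts in sorafenib, against 2807, 2729 and 2475 in DMSO, 1.77-fold higher. Gar1 had 2484, 2322 and 2514 in sorafenib, against 1531, 1278 and 1326 in DMSO, also 1.77-fold higher. Both changes were far larger than the spread between replicates. Nop10 had 2355, 2157 and 2213 in sorafenib, against 2052, 1974 and 2083 in DMSO, a log2 change of 0.14 ± 0.05 (limma adjusted p = 0.0297). Nhp2, which like NOP10 stabilizes the core of the particle, had 3758, 3575 and 3616 in sorafenib, against 3544, 3057 and 3381 in DMSO, and its log2 change of 0.14 ± 0.06 did not pass (limma adjusted p = 0.0543). With equal totals Nhp2 did pass, at 0.29, and Nop10 stood at 0.29; with quantile normalization Nop10 no longer passed, at 0.06.

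Of 14 small subunit factors, 11 rose, 1 fell and 2 did not pass, with a median log2 change of 0.57. Among all genes tested, 38.8% rose and 37.8% fell. Utp15, a subunit of the UTP-A complex that binds the nascent precursor, had 3644, 3511 and 3516 normalized counts in sorafenib, against 1305, 1330 and 1443 in DMSO. It rose 2.62-fold (log2 change 1.39 ± 0.05, limma adjusted p = 2.38e-08). Utp20, a large scaffold of the processome, had 10579, 10423 and 10302 in sorafenib, against 4611, 4227 and 4146 in DMSO, 2.41-fold higher. Wdr75, also of UTP-A, rose 2.16-fold, with 8058, 8222 and 8860 in sorafenib and 3893, 3776 and 3966 in DMSO. These were the 3 small subunit genes past 2-fold. The other UTP-A genes rose less: Wdr43 averaged 8515 ± 231 in sorafenib and 4697 ± 415 in DMSO, 1.81-fold; Heatr1 rose 1.76-fold and Utp4 1.32-fold. Nop14, which binds the small subunit precursor, averaged 7912 ± 124 in sorafenib and 3971 ± 102 in DMSO, a 1.99-fold rise just under the 2-fold mark.

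Several of the other small subunit factors act late, on precursors close to export. Ltv1, needed for export and release of assembly factors, had 4949, 4902 and 5196 in sorafenib, against 3617, 3257 and 2884 in DMSO, 1.54-fold higher. Pno1, a partner of the nuclease NOB1, rose 1.43-fold. Tsr1, a GTPase-like factor of late precursors, rose 1.42-fold. Nob1, the nuclease that makes the mature end of the small subunit RNA, rose 1.30-fold. Bysl, another late factor, had 4436, 4353 and 4483 in sorafenib, against 5173, 4879 and 5022 in DMSO, and fell by 0.18 on the log2 scale (SE 0.04, limma adjusted p = 0.00153). With equal totals Bysl no longer passed, at −0.03. Utp3, not counted among these late factors, averaged 4799 ± 153 in sorafenib and 4543 ± 241 in DMSO. Rrp12, an export factor, averaged 6832 ± 44.4 in sorafenib and 6925 ± 175 in DMSO. Neither passed (limma adjusted p = 0.155 for Utp3 and 0.617 for Rrp12), and their groups overlapped, but with equal totals both passed as higher, at 0.24 and 0.14.

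**Figure D3:**
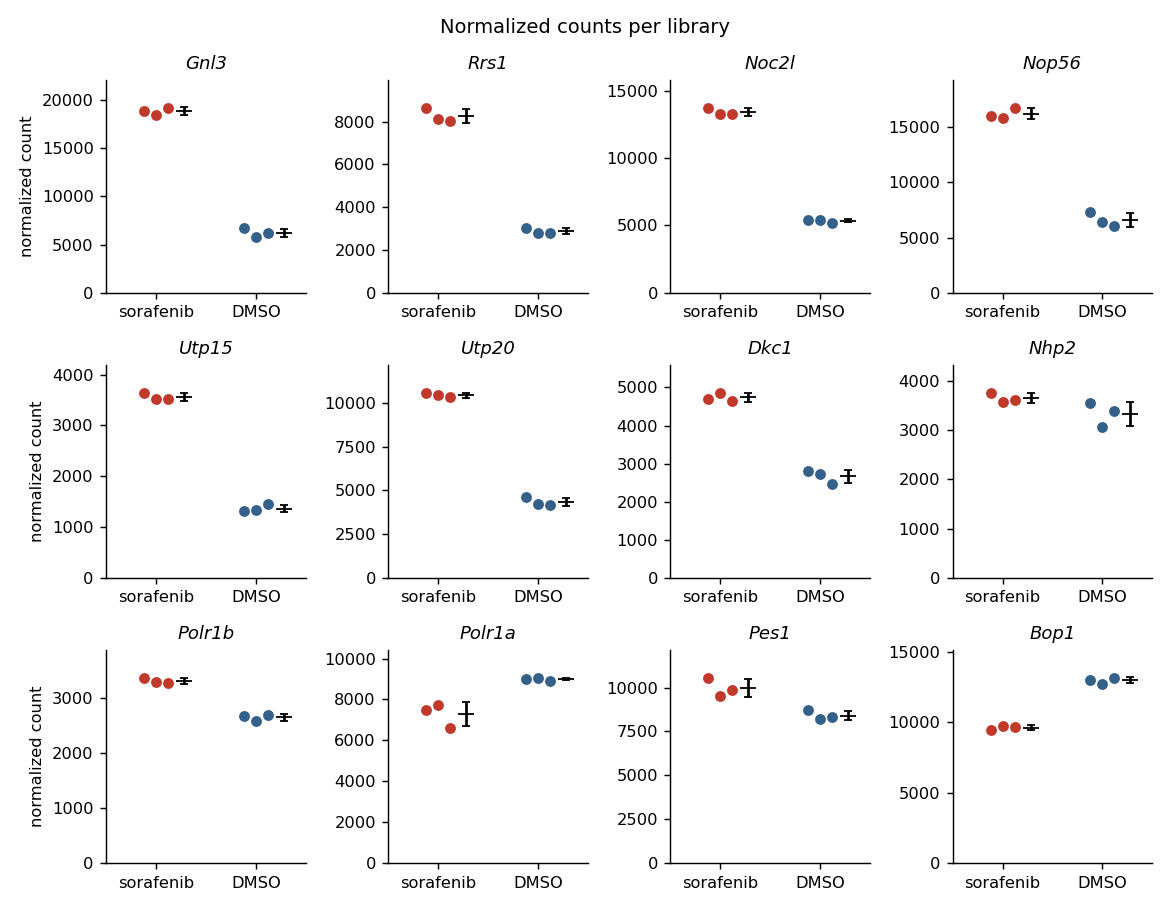
Normalized counts (y axis, from 0) of 12 genes in the 3 sorafenib libraries (red) and 3 DMSO libraries (blue), with the mean and SD of each group in black. The groups are separate in all 12 panels, sorafenib is lower for Polr1a and Bop1, and the gap for Nhp2 is small beside its spread.

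Of 11 large subunit factors, 10 rose and 1 fell, with a median log2 change of 0.69. The shares among all genes tested were 38.8% and 37.8%. Gnl3 (nucleostemin), a nucleolar GTPase known from stem and cancer cells, had 18850, 18427 and 19229 normalized counts in sorafenib, against 6668, 5799 and 6163 in DMSO. It rose 3.03-fold, the largest change of the 40 genes (log2 change 1.60 ± 0.05, limma adjusted p = 1.05e-08), and lies at chr14:31012433-31019152. Rrs1, which brings the 5S particle into the large subunit, had 8665, 8126 and 8022 in sorafenib, against 3026, 2798 and 2811 in DMSO, a 2.87-fold rise (chr1:9545408-9547455). Noc2l, a nucleolar complex protein that also inhibits histone acetyltransferases, had 13741, 13246 and 13235 in sorafenib, against 5414, 5362 and 5204 in DMSO, 2.52-fold higher. In each of these 3 genes the lowest sorafenib library stood above 2 times the highest DMSO library.

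Other large subunit genes rose by less. Wdr74, a partner of the ATPase NVL, averaged 2222 ± 95.4 in sorafenib and 1135 ± 38.1 in DMSO, 1.96-fold higher. Nop2, a methyltransferase of the large subunit RNA, averaged 8901 ± 77.0 in sorafenib and 5347 ± 172 in DMSO, 1.66-fold higher. Ebna1bp2, an assembly factor of the large subunit, rose 1.62-fold, Mrto4, which acts on the ribosomal stalk, 1.39-fold, and Nop16 1.22-fold. The 3 genes of the PES1, BOP1 and WDR12 complex did not move together. Pes1 had 10565, 9534 and 9871 in sorafenib, against 8704, 8213 and 8315 in DMSO, 1.19-fold higher. Wdr12 had 3822, 3484 and 3330 in sorafenib, against 2748, 3066 and 2832 in DMSO, 1.23-fold higher. Bop1 had 9428, 9751 and 9666 in sorafenib, against 13013, 12741 and 13148 in DMSO. It fell by 0.43 on the log2 scale (SE 0.03, limma adjusted p = 1.79e-06), the largest fall of the 40 genes, and still fell by 0.28 with equal totals. Bop1 (chr15:76452989-76477277) overlaps Mroh1 and Scx on the other strand. Of the 40 genes, 11 overlap a tested gene on the other strand: Bop1, Bysl, Dkc1, Gnl3, Heatr1, Nhp2, Nop56, Pno1, Rrp9, Tsr1 and Wdr12. The library kit keeps strand, and whether the authors' counting used it was not stated.

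Transcripts of the most abundant nucleolar proteins rose as well. Nucleolin (Ncl), which binds the precursor early, had 64184, 63714 and 64856 normalized counts in sorafenib, against 41609, 37176 and 38818 in DMSO, 1.64-fold higher. Nucleophosmin (Npm1), a scaffold of the outer nucleolus, had 53357, 51507 and 54047 in sorafenib, against 29121, 26550 and 28289 in DMSO, 1.89-fold higher. The other 38 genes rose as a sum too, with 275561 to 282134 normalized counts per library in sorafenib and 176881 to 187308 in DMSO. The groups did not overlap in either case.

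Ratios between partner genes within a library do not change when the library is multiplied by a single factor, as with equal totals, although quantile normalization can alter them. The 8 pairs described were chosen after their values were seen, so they are a description with no test. The ratio of Dkc1 to Nhp2 was 1.25, 1.36 and 1.28 in sorafenib, against 0.792, 0.893 and 0.732 in DMSO. The ratio of Gar1 to Nop10 was 1.05, 1.08 and 1.14 in sorafenib, against 0.746, 0.647 and 0.636 in DMSO. Both H/ACA ratios were higher in every sorafenib library, by 0.69 on the log2 scale. The ratio of Pes1 to Bop1 was 1.12, 0.978 and 1.02 in sorafenib, against 0.669, 0.645 and 0.632 in DMSO. The ratio of Polr1b to Polr1a was 0.449, 0.423 and 0.494 in sorafenib, against 0.296, 0.284 and 0.301 in DMSO. The mean log2 ratio of Utp15 to Utp4 was −0.48 in sorafenib, against −1.47 in DMSO, the widest gap of the 8 at 0.99. In all 8 pairs the 2 groups did not overlap, but the pairs were picked with their values known. Other gene pairs were not examined.

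**Figure D4:**
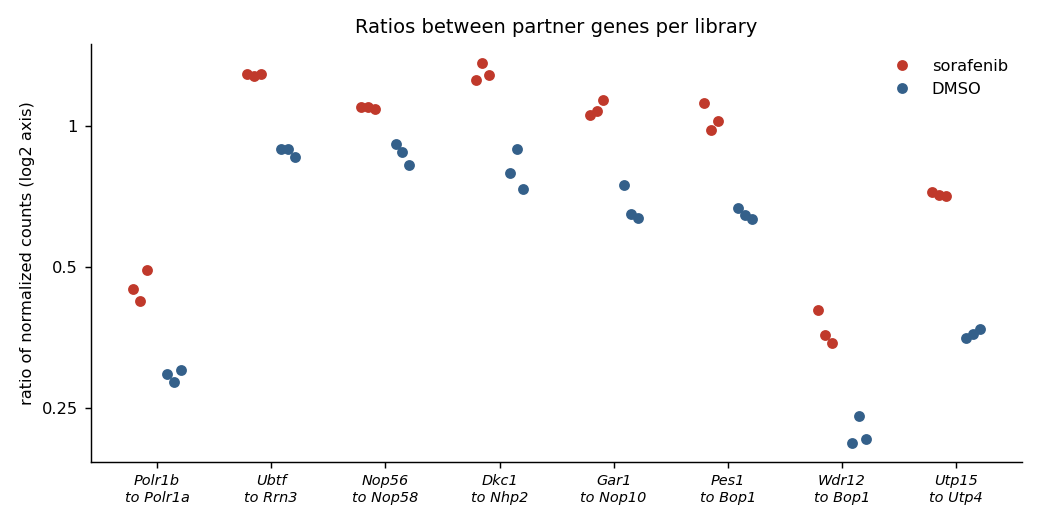
The ratio of normalized counts of 2 partner genes (y axis, log2 scale) in each sorafenib library (red) and each DMSO library (blue), for 8 pairs. In each pair the red points lie above the blue; ratios of Dkc1 to Nhp2 are 1.25 to 1.36 in sorafenib and 0.732 to 0.893 in DMSO.

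Replicates varied little. The coefficient of variation of the 40 genes had a median of 2.72% in sorafenib and 3.32% in DMSO, and at most 8.27% and 11.3%. The DMSO libraries differed in a shared way: replicate 1 was the highest of the 3 for 28 genes and replicate 2 the lowest for 30. In sorafenib, replicate 2 was the lowest for 25 genes. Leaving out DMSO replicate 2 gave a median log2 change of 0.67 for the 40 genes.

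A list of 119 other genes of the pathway was examined beside the 40. It too was drawn up with earlier results of these data known, so it is not an independent check. Of these, 94 rose, 8 fell and 17 did not pass (limma, adjusted over all genes tested, where 38.8% rose), with a median log2 change of 0.48. By role, 8 of 11 further polymerase I genes, 5 of 7 further box C/D genes and 2 of 2 H/ACA assembly genes rose. So did 35 of 41 small subunit genes, 35 of 45 large subunit genes and 9 of 13 exosome genes. Snu13, a core box C/D protein counted among those 7, rose 1.18-fold. Taf1d, a subunit of the promoter selectivity factor of polymerase I, had 8628, 8528 and 8708 normalized counts in sorafenib, against 2975, 2659 and 2982 in DMSO, 3.00-fold higher. Ppan, a large subunit factor, rose most of the 119, with 6855, 6137 and 6170 in sorafenib and 2312, 1989 and 1852 in DMSO, 3.11-fold. Naf1, which loads dyskerin during H/ACA assembly, rose 2.14-fold, and the box C/D assembly ATPase Ruvbl2 2.03-fold. Utp25 of the small subunit rose 2.46-fold and Dis3, a nuclease of the RNA exosome, 2.57-fold. Among those that fell, C1d, a cofactor of the nuclear exosome, changed most, with a log2 change of −0.53 ± 0.05. Cd3eap, the polymerase I subunit also named Polr1g, changed by −0.49 ± 0.06, Utp6 by −0.46 ± 0.06, Pih1d1 by −0.42 ± 0.06 and Gnl3l, a relative of Gnl3, by −0.35 ± 0.07. Gnl3 was higher and Gnl3l lower in sorafenib.

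In mammals most snoRNAs are cut from introns of host genes, many of which encode nucleolar proteins. In GENCODE M21, 21 snoRNA genes lie within 7 of the 40 genes on the strand of the host: Nop56, Nop58, Dkc1, Wdr43, Tsr1, Gnl3 and Ncl. All 7 hosts rose, with a median log2 change of 0.86, against 26 of the other 33 genes with a median of 0.51. Of all genes tested, 38.8% were higher. Whether being a host plays a part was not tested. The guide RNAs themselves were barely seen: of 20 listed in the deposited table, the highest value in any library was 2.62. Libraries were made from poly(A)-selected RNA, which recovers RNAs without a poly(A) tail only in part.

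Promoter windows from RefSeq on GRCm38.p6, 250 bases before to 50 after each annotated start, were at hand for 35 of the 40 genes. They were searched for CACGTG, the E-box bound by MYC and related factors, which reads the same on both strands. At least 1 E-box was found in 9 of the 35 genes (25.7%), in 17 of 95 further factors with a window (17.9%) and in 1291 of 11376 tested genes with a window (11.3%). The 9 genes with an E-box had a median log2 change of 0.51, and the other 26 a median of 0.73. A second element, TGATGNAA on either strand, the core of sites bound by C/EBP and ATF dimers and not overlapping CACGTG, was found in 1 of the 35 genes (2.86%) and in 2.84% of the tested genes. These matches describe letters in the windows, not binding.

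The windows are shown because they place the E-box close to the RefSeq start in most cases: 7 of 10 E-boxes begin in the first 50 bases after it. Where E-boxes lie in the other genes tested was not examined. In GENCODE M21 the Wdr43 gene starts farther upstream, at 71615895. Each line is read 5′ to 3′ on the strand of the gene, with the motif in capitals.
Pes1 (rose 1.19-fold, chr11:3963965-3963994, plus strand): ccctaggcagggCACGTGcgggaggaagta
Utp4 (rose 1.32-fold, chr8:106893643-106893672, plus strand): tgcgcaagcgcgCACGTGgggccggggcgg
Wdr43 (rose 1.81-fold, chr17:71616220-71616249, plus strand): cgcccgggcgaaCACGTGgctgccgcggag
Tsr1 (rose 1.42-fold, chr11:74898092-74898121, plus strand): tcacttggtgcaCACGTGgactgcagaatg
Ltv1 (rose 1.54-fold, chr10:13193092-13193121, minus strand): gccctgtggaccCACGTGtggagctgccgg
Utp20 (rose 2.41-fold, chr10:88826765-88826794, minus strand): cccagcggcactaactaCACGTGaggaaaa
Pno1 (rose 1.43-fold, chr11:17211540-17211569, minus strand): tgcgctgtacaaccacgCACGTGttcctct
Nop14, which holds the single TGATGNAA match, on the opposite strand (rose 1.99-fold, chr5:34660109-34660138, minus strand): tgggcgtggttTTACATCAgcatcctatgc

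In Nop2 and Rrn3 the E-boxes lie before the start, at −60 in Nop2 and at −215 and −48 in Rrn3. The 250 bases before the start are shown for these 2 because they moved in opposite directions, Nop2 higher 1.66-fold and Rrn3 lower 1.21-fold, although both hold the motif.
Nop2 (chr6:125131633-125131882, plus strand): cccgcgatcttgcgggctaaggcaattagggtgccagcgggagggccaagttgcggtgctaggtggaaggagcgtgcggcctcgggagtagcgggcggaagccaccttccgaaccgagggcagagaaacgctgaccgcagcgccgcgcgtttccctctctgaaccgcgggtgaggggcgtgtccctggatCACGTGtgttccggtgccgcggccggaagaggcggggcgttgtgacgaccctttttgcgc
Rrn3 (chr16:13780449-13780698, plus strand): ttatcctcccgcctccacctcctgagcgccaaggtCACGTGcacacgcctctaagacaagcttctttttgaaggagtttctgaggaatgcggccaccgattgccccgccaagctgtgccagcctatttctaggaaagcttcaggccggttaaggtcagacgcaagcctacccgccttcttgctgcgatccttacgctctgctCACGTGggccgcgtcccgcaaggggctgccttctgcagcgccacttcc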

How the data were processed

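Values are normalized counts, deposited by the authors as 1 signal column per library; the submitters' processing notes name DESeq2, bcl2fastq and GRCm38.p6. How reads were assigned to genes is not stated there. For each gene the authors deposited their own log2 change, its error, a test score, and raw and adjusted p-values, cited here only as theirs. Per the labels' protocols, poly(A) RNA was selected and strand was kept. The most common low value in each library was taken as the step of 1 read. From that step, depth was estimated at 65528548 to 80185403 reads per library. Only 59.0% to 68.1% of low values were whole multiples of that step within 0.02, so no count model was fitted.

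A gene was tested if 3 or more libraries held 10 or more normalized counts. limma 3.58.1 in R 4.3.3 (trend, robust) was run on log2(normalized count + 1) with group as the only term, after the step was tested on simulated data. That scale understates the change of low genes; folds in the text are ratios of group means. Summaries used pandas 2.3.3 under Python 3.11.15, and plots used matplotlib 3.10.9.

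Printed gene positions come from GENCODE M21 (GRCm38) by gene ID. Overlaps between genes use positions in the deposited table. Named are all 40 genes and, among further factors, the largest rise and fall per role with a mean of at least 100. Single markers, Snu13, Maf1 and Polr3k were named after their values were seen. Members, lists and motifs were chosen with earlier results of these data known. Alternatives were quantile and equal-total scaling, no filter, a stricter minimum (50), other pseudocounts (0.1 or 10), a replicate block, and each library left out. The p-values measure only the spread between these samples.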

Additional observations from a re-analysis of the deposited data

How the results depend on the processing

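Over 13 alternatives, 32 to 36 of the 40 genes were higher and 3 or 4 lower, and 34 or 35 lay above the median of all genes tested. The median log2 change was 0.86 with equal totals, where 14 genes passed 2-fold, and ranged from 0.67 to 0.73 when a library was left out. The counts when a library was left out were 32 to 34 higher and 4 lower for the 40 genes. The log2 change of Rrp12, −0.02 as reported, reversed to 0.0046 with quantile normalization and to 0.14 with equal totals. With equal totals Bysl also lost its call and Nhp2 and Utp3 gained one. That setting multiplies each library by a single factor, and the all-gene median moved up by 0.16. The cause of the reversal with quantile normalization was not tested. Nhp2 and Utp3 also gained a call without DMSO replicate 1 (limma adjusted p = 0.0177 for Nhp2 and 0.0385 for Utp3). Nop10 lost its call with quantile normalization, with no filter, and without DMSO replicate 1, DMSO replicate 2, sorafenib replicate 1 or sorafenib replicate 3. Same-numbered libraries deviated from their group means with correlations of 0.08, 0.04 and 0.02 across genes, all under 0.1. Every library correlated best with its own number except DMSO replicate 3. The deposited library numbers run in turn, each DMSO library followed by the sorafenib library of the same replicate number. Neither that order nor such small correlations can tell whether same-numbered libraries were handled as pairs. With the replicate block 34 genes were higher and 4 lower, Nhp2 being the added call, and the median stayed at 0.70.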

Other observations

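RNA polymerase III, which makes the 5S ribosomal RNA and the transfer RNAs, was examined as the other polymerase of ribosome production. Of 12 genes for its subunits and factors, 9 rose, 2 fell and Polr3k did not pass (limma, adjusted over all genes tested, where 38.8% rose), with a median log2 change of 0.47. Polr3e, a subunit specific to this polymerase, had 3151, 3029 and 2973 normalized counts in sorafenib, against 1357, 1263 and 1299 in DMSO, 2.34-fold higher. Brf1, which recruits the polymerase to transfer RNA genes, had 3105, 3291 and 3190 in sorafenib, against 4062, 4348 and 4278 in DMSO, a log2 change of −0.40 ± 0.04. The groups did not overlap for Polr3e or Brf1. Maf1, a repressor of this polymerase, is counted among the 9 that rose, with a log2 change of 0.44 ± 0.04.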
